A study of Mus musculus with 10 samples.

Results

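Renin cells from the right kidney were compared between mice with aortic coarctation and mice with a sham operation. The comparison rests on 5 of the 10 libraries of the series, chosen by side from the sample labels: right kidneys from 3 mice with coarctation and from 2 with sham surgery. All mice were C57BL/6 adults, 8 to 12 weeks old, and carried Ren1c-YFP, a reporter that puts a yellow fluorescent protein (listed in the table as EYFP) under renin control. The coarctation group had the aorta narrowed at a point between the origins of the renal arteries. The sham group had the same surgery, but its aorta was neither exposed nor narrowed. Kidneys were taken 72 h later, and 1000 living, fluorescent cells per kidney were sorted from the cortex for RNA-seq. The sort gate is itself a readout of renin promoter activity, so every library holds cells that passed a reporter threshold. The labels give no blood pressure, no sex and no sort yields. The left kidneys of the same mice (3 coarctation and 2 sham libraries) share the model, and so its estimate of spread, and otherwise serve to show where the right side differs.

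Renin cells, also called juxtaglomerular cells, sit in the wall of the arterioles that feed the glomeruli and release renin, the protease that starts the angiotensin cascade. They sense pressure in the arteriole, and lower pressure is known to raise renin synthesis and release while higher pressure reduces both. Cyclic AMP signalling, driven among others by the beta-1 adrenergic receptor, is the main stimulatory pathway. The right renal artery of mice commonly branches off higher than the left one, which puts the right kidney upstream of a constriction between them. The comparison therefore asks what right kidney renin cells express after a constriction, against those of mice whose aorta was left alone.

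Depth in the right kidney libraries was 20029817 to 32006229 estimated counts, and log2 CPM correlated between them at 0.875 to 0.926. On the first principal component (22.7% of variance) both kidneys of sham mouse 1 lay away from the other 8 libraries, and on the second (15.0%) both kidneys of coarctation mouse 1 did. With 2 sham mice, each sham library carries much of the comparison. In bulk samples, fewer cells of a type and less RNA per cell cannot be told apart.

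No gene passed the edgeR test across all genes. Of 18825 genes tested in edgeR with Benjamini-Hochberg adjustment, 0 (0%) were called, and the smallest adjusted p was 0.995. At an unadjusted p under 0.05 there were 359 higher genes (1.91%) and 361 lower genes (1.92%). DESeq2 called 57 genes (39 higher, 18 lower) and limma-voom 0. The median log2 change over all tested genes was -0.05, and it was -0.18 with upper-quartile scaling. TPM (transcripts per 1e6, a level scaled by transcript length and depth) did not overlap between the groups in 1019 genes with higher (5.41%) and 2064 genes with lower coarctation values (11%). Because nothing passed in edgeR, the values that follow describe these 5 libraries, and all log2 changes are coarctation right minus sham right with the standard error (SE) of the edgeR model.

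The renin gene had the smallest p of all genes named here. Ren1 (chromosome 1, GRCm38, 133350510 to 133360325, plus strand) was at 5451, 11982 and 10835 TPM in coarctation mice 1, 2 and 3, and at 21776 and 48591 TPM in sham mice 1 and 2. All 3 coarctation libraries lay below both sham libraries. The mean was 9423 ± 3487 TPM (SD, n = 3) against 35184 ± 18961 TPM (SD, n = 2). The log2 change was -1.85 (SE 0.38), 3.60-fold lower, and it did not pass in edgeR. DESeq2 gave an adjusted p of 0.0357, and over 17 alternatives it ran from 1.1e-07 to 1.00. Without sham mouse 2 the log2 change was -0.96. The highest coarctation value still lay below sham mouse 1, so the direction did not rest on a particular sham library. Ren1 was thus abundant in every right library, with 5451 TPM as the lowest level.

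The bases just before the Ren1 start are shown because this gene has the smallest p of the genes named and its control region is what the reporter reads out. RefSeq (GRCm38.p6) places them at chr1:133350524-133350673 on the plus strand, and the capitals mark the TATA box. This RefSeq start lies downstream of the GENCODE start given above.
Ren1: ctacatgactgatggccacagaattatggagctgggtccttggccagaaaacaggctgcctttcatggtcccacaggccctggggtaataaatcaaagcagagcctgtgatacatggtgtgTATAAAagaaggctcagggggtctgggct
A full cyclic AMP response element (TGACG followed directly by TCA, the same on both strands) was not found in the 300-base window of Ren1, which runs from 250 bases before to 50 after the start. It occurs in 588 of 32851 RefSeq windows of that length (1.79%). Of the 17 renin cell genes listed here, 14 had a window and none held this element.

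The reporter that served for the sort had the same direction as Ren1. EYFP was at 60.6, 174 and 164 TPM in coarctation mice 1 to 3 and at 176 and 979 TPM in the sham mice. Sham mouse 1 lay just above the highest coarctation library, so nearly all of the gap came from sham mouse 2. The log2 change was -2.11 (SE 0.71), and it was -0.16 without sham mouse 2 and -2.90 without sham mouse 1. Akr1b7, the aldo-keto reductase gene used as a second marker of renin cells, was at 1246, 3405 and 3508 TPM against 2245 and 9780 TPM. The groups overlapped, since sham mouse 1 lay below coarctation mice 2 and 3. Its log2 change was -1.13 (SE 0.60) and became 0.52 without sham mouse 2 and -1.87 without sham mouse 1. The 3 genes therefore rested on sham mouse 2 to different degrees.

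Kiss1, which encodes the neuropeptide kisspeptin, had the widest gap among the renin cell genes. It was at 0.116, 0.772 and 7.10 TPM in the coarctation mice, from 1, 8 and 59 estimated counts. In the sham mice it was at 84.5 and 98.3 TPM, from 583 and 925 counts. The highest coarctation value was far below the lowest sham value. The log2 change was -5.03 (SE 1.07), with an adjusted p of 0.0011 in DESeq2 and 1.1e-14 to 1 over 17 alternatives. Without coarctation mouse 3 the log2 change was -7.52, and that fit called it (adjusted p = 0.0489 in edgeR). Kiss1 overlaps other annotated genes, among them Golt1a, so its counting is uncertain.

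Kiss1 lies next to Ren1 on chromosome 1 (133321875 to 133329901), and the levels of its neighbours, chosen after their values were seen, did not follow. Golt1a, which starts upstream of Kiss1 and overlaps it, had a log2 change of 1.73 (SE 1.35). Etnk2, an ethanolamine kinase gene just downstream of Ren1, had 0.06 (SE 0.72). Sox13, a transcription factor gene beyond it, had 0.11 (SE 0.47). TPM overlapped between the groups for these 3 neighbours, while it did not for Kiss1 and Ren1.

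Aldh7a1, an aldehyde dehydrogenase of lysine breakdown, was at 49.5, 116 and 95.7 TPM in the coarctation mice. The sham mice were at 242 and 485 TPM. The groups did not overlap, and the log2 change was -2.01 (SE 0.47), or -1.23 without sham mouse 2. Adrb1, the beta-1 adrenergic receptor through which sympathetic nerves stimulate renin release, was at 2.85, 3.78 and 4.61 TPM against 8.02 and 13.1 TPM. Its log2 change was -1.40 (SE 0.53), and -0.82 without sham mouse 2. Gja5, which encodes connexin 40 of the juxtaglomerular gap junctions, was at 13.5, 4.44 and 5.99 TPM against 15.0 and 21.1 TPM. Here coarctation mouse 1 lay close to the lower sham library. The log2 change was -0.98 (SE 0.54), with -1.74 without coarctation mouse 1 and -0.53 without sham mouse 2.

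**Figure D1:**
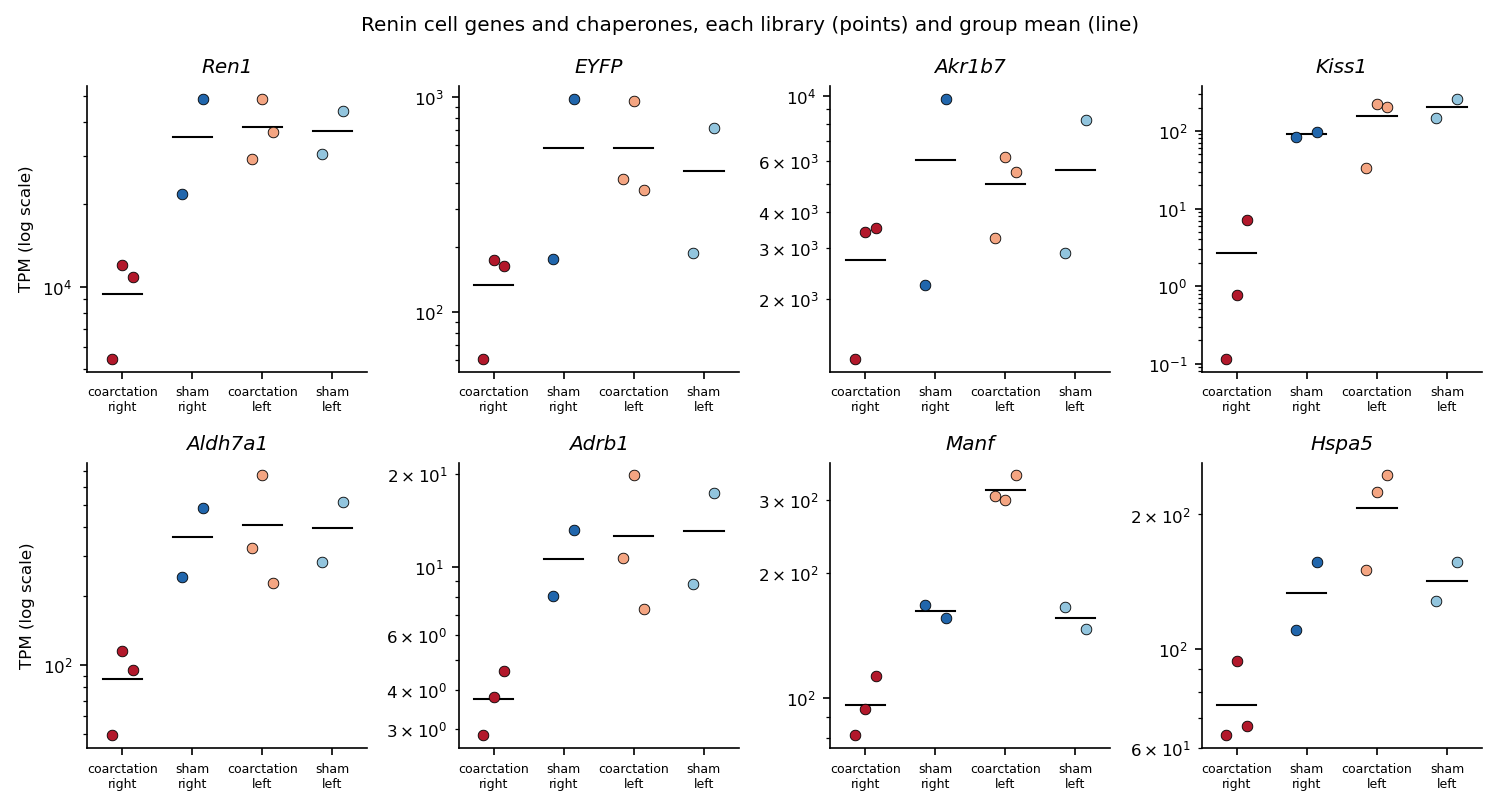
TPM on log axes of 6 renin cell genes and 2 chaperone genes in each of the 10 libraries (points) with the group mean (line). The 3 coarctation right libraries lie lowest for Ren1, Kiss1, Aldh7a1 and Adrb1 and just lowest for EYFP, whereas they overlap the other groups for Akr1b7.

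Over the whole list of 17 renin cell genes, 13 were lower and 4 higher, with a median log2 change of -0.74 (all tested genes: -0.05). At an unadjusted p under 0.05 there were 5 lower members (background 1.92%) and 1 higher. In 7 members the groups did not overlap with coarctation lower (background 11%). The list was chosen with earlier results of these libraries known, so its count is not independent evidence of a direction. The median was -1.04 without sham mouse 1 and -0.08 without sham mouse 2. Pde3a, a phosphodiesterase that breaks down cyclic AMP, was the higher member at that p. It was at 19.5, 19.8 and 22.2 TPM in coarctation and at 13.8 and 12.6 TPM in sham libraries (log2 change 0.79, SE 0.30).

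Beyond renin, the 12 lower genes of smallest p among well expressed genes whose right groups did not overlap were 2.53 to 6.26-fold lower, with unadjusted p from 0.00034 to 0.0048. Ren1 and Aldh7a1 are described above. Dtx1, which encodes a ubiquitin ligase of the Notch pathway, was at 1.34, 3.39 and 2.52 TPM in coarctation and at 13.3 and 14.2 TPM in sham libraries. The sham mice were close to each other here, and the log2 change was -2.42 (SE 0.56), with -2.64 to -2.16 over all alternatives. Npr3, the clearance receptor for natriuretic peptides, was at 1.02, 1.41 and 1.15 TPM against 2.79 and 5.19 TPM. Its log2 change was -1.65 (SE 0.45), or -0.95 without sham mouse 2. Mapt, which encodes the microtubule protein tau, was at 6.73, 15.3 and 17.4 TPM against 33.9 and 36.9 TPM (log2 change -1.34, SE 0.39). The sham mice were close to each other for Mapt and further apart for Npr3.

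Eno3, the muscle form of enolase, was at 9.32, 30.2 and 14.0 TPM against 45.1 and 137 TPM. Its log2 change of -2.34 (SE 0.59) became -1.11 without sham mouse 2 and -2.98 without sham mouse 1. Qpct, a glutaminyl cyclase that modifies secreted peptides, had a log2 change of -1.64 (SE 0.47), with -0.56 without sham mouse 2 and -2.24 without sham mouse 1. Enpp4, of the ectonucleotide phosphodiesterase family, had -1.87 (SE 0.48), Mvp, the major vault protein gene, -1.48 (SE 0.41), and Col13a1, a transmembrane collagen, -1.64 (SE 0.47). These 3 kept a log2 change of -1.21 or lower in every alternative. Tbl2 (log2 change -2.65, SE 0.71) and Cnot6l, a deadenylase of the CCR4-NOT complex (log2 change -1.99, SE 0.54), complete the set. For Cnot6l, sham mouse 1 alone was at 18.8 TPM while sham mouse 2 was at 4.83 TPM, and the log2 change was -0.88 without sham mouse 1.

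The left kidneys show on which side of each gap the unusual libraries lay. For 10 of the 12 lower genes, the 3 coarctation right libraries lay below all 7 other libraries, which was so for 154 of all tested genes (0.818%). These 10 were chosen for lying below the sham right libraries, so that part of their order was given by the choice. For the other two, Tbl2 and Cnot6l, the 2 sham right libraries lay above all 8 others, as in 427 genes (2.27%). Kiss1, EYFP and Adrb1 also had their 3 coarctation right libraries below all 7 others. Ren1 in left kidneys was at 29285, 48620 and 36877 TPM with coarctation and at 30521 and 43896 TPM in sham mice. Those 5 values and the sham right values lay in a common range, and the coarctation right libraries were the exception.

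**Figure D2:**
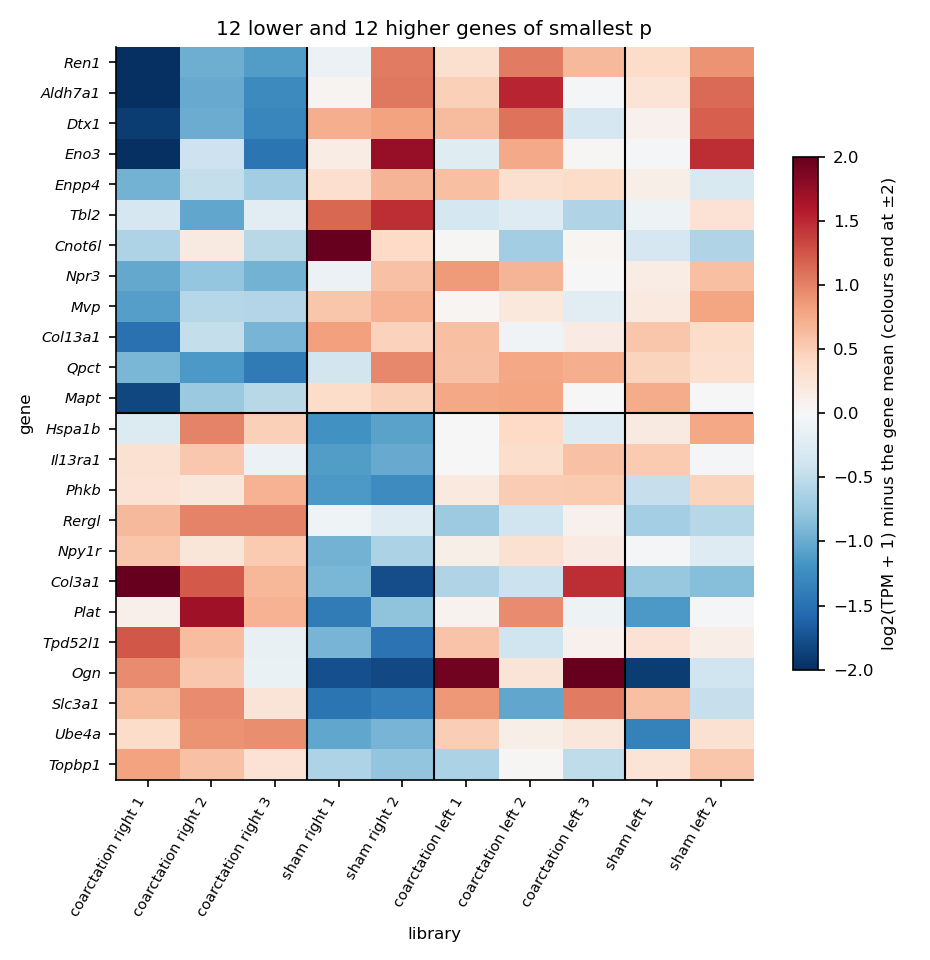
Level of the 12 lower genes (upper block) and the 12 higher genes (lower block) of smallest p in each library, as log2(TPM + 1) minus the mean of the gene over 10 libraries. In the upper block the 3 coarctation right columns are mostly blue while other groups are mixed or red, and in the lower block the 2 sham right columns are mostly blue.

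The 12 higher genes of smallest p, chosen by the same rule, were 2.29 to 20.1-fold higher, with unadjusted p from 0.0004 to 0.0039. Hspa1b, a stress-inducible cytosolic chaperone of the Hsp70 family, was at 93.9, 228 and 159 TPM in coarctation and at 48.6 and 54.0 TPM in sham right libraries. The log2 change was 1.73 (SE 0.36), and DESeq2 gave an adjusted p of 0.0126, the lowest of 17 alternatives (highest 1). In left kidneys Hspa1b was at 114, 150 and 95.2 TPM with coarctation and at 130 and 195 TPM in sham mice, so that the sham right libraries were the lowest of all 10. Hspa1b has a near-identical copy, Hspa1a, and how reads were divided between them is not given in the sources used here. Hspa1a had the same direction (62.2, 185 and 142 TPM against 44.8 and 80.3 TPM, log2 change 1.10, SE 0.44, and 1.77 without sham mouse 2), with overlapping groups.

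The pattern of low sham right libraries recurred in this set. For 7 of the 12 higher genes the 2 sham right libraries lay below all 8 others, as in 152 of all tested genes (0.807%). Lying below the coarctation right libraries was part of the choice of these genes. Besides Hspa1b these were Il13ra1, Phkb, Npy1r, Col3a1, Tpd52l1 and Slc3a1. Il13ra1, a subunit of the interleukin-13 receptor, was at 7.07, 8.46 and 4.99 TPM against 1.99 and 2.23 TPM (log2 change 1.82, SE 0.42). Phkb, a subunit of phosphorylase kinase, was at 10.7, 10.2 and 14.5 TPM against 3.36 and 3.05 TPM (log2 change 2.03, SE 0.46). Npy1r, a receptor for neuropeptide Y, was at 12.0, 9.41 and 11.7 TPM against 3.58 and 4.68 TPM (log2 change 1.56, SE 0.39). In each of these 3 genes the sham libraries were close to each other.

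Rergl, which encodes a small GTPase of the Ras family, was the one higher gene in which the coarctation right libraries stood out. It was at 1589, 2014 and 2021 TPM in coarctation right, 950 and 842 TPM in sham right, 608, 771 and 1073 TPM in coarctation left, and 629 and 685 TPM in sham left libraries. The 3 coarctation right values exceeded all 7 others, as in 144 of all tested genes (0.765%). The log2 change was 1.20 (SE 0.30) and stayed between 1.06 and 1.26 over all alternatives. Olfr558, an olfactory receptor gene named after its values were seen, had the same order, with 100, 103 and 85.8 TPM against 41.3 and 53.8 TPM (log2 change 1.14, SE 0.33). Vtn, the vitronectin gene of pericytes and liver, did as well, at 4.13, 10.4 and 5.98 TPM against 0.500 and 0.286 TPM (log2 change 4.26, SE 1.14). In left kidneys the Vtn change was -6.22 (SE 1.18), at 0, 0.041 and 0 TPM with coarctation and 2.96 and 0.746 TPM in sham mice. The Olfr558 change there was 0.85 (SE 0.32). Nr4a3, Mef2a and Atp6v1c2, described below, also had their coarctation right libraries above all 7 others.

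In the other genes of the 12 higher genes neither group stood apart from all the rest. Plat, which encodes tissue plasminogen activator, was at 6.62, 22.0 and 10.6 TPM against 1.70 and 3.07 TPM (log2 change 2.49, SE 0.65, and 3.16 without sham mouse 2). Ogn, a small proteoglycan of the matrix, was at 32.2, 23.9 and 14.7 TPM against 4.11 and 3.91 TPM (log2 change 2.73, SE 0.72). Its left kidney change was as large (log2 change 3.12, SE 0.73). Ube4a (2.16, SE 0.61) and Topbp1 (1.82, SE 0.52) complete the set. Col3a1, a fibrillar collagen of the set with low sham right libraries, was at 13.9, 7.69 and 4.90 TPM against 0.976 and 0.0934 TPM, the latter from 96 and 13 estimated counts (log2 change 4.33, SE 1.10). It was 6.58 without sham mouse 1, 3.53 without sham mouse 2 and 3.71 without coarctation mouse 1. Such low sham levels make the size of the Col3a1 change imprecise.

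Chaperones of the endoplasmic reticulum, which fold secreted proteins such as renin, were described next because renin cells are secretory. Of 29 tested members of the chaperone and unfolded protein response list, 19 were lower and 10 higher, with a median log2 change of -0.16 (all tested genes: -0.05). There were 3 lower members (background 1.92%) and 0 higher members (background 1.91%) at an unadjusted p under 0.05. In 6 members the groups did not overlap with coarctation lower (background 11%). The median was -0.48 without sham mouse 1 and 0.22 without sham mouse 2, so the direction of the list as a whole turned with the sham library used.

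A few chaperones were lower whichever sham library was left out. Manf, a secreted factor induced by stress in this compartment, was at 81.1, 93.9 and 113 TPM in coarctation and at 168 and 156 TPM in sham libraries. Calr, which encodes the calcium-binding chaperone calreticulin, was at 41.5, 37.2 and 38.3 TPM against 67.2 and 57.8 TPM. Neither gene overlapped between the groups, and replicates were close within each. The log2 changes were -0.62 (SE 0.28) for Manf and -0.52 (SE 0.32) for Calr. Hspa5, the main Hsp70 chaperone of the compartment (BiP), was at 64.0, 93.8 and 67.0 TPM against 110 and 157 TPM. Its log2 change was -0.73 (SE 0.31), and -0.28 without sham mouse 2. Sdf2l1, a partner of Hspa5, was at 9.53, 4.59 and 4.46 TPM against 11.7 and 25.8 TPM (log2 change -1.44, SE 0.53, with -0.56 without sham mouse 2 and -2.04 without coarctation mouse 1). For these 4 genes, of 29 tested list members, the 3 coarctation right libraries lay below all 7 other libraries (background 0.818%). The 4 were picked from the list by smallest p, so part of this order was favoured by the choice.

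The upstream sequences of Hspa5 and Calr are shown because they carry the element known to raise chaperone genes in the unfolded protein response. This element, ERSE, was searched on both strands as CCAAT, 9 bases of any kind and CCACG, and is in capitals. The Hspa5 stretch is chr2:34771940-34772089 (plus strand) and the Calr stretch chr8:84846932-84847181 (minus strand, printed as transcribed), from RefSeq on GRCm38.p6. In Calr the element reads on the opposite strand.
Hspa5: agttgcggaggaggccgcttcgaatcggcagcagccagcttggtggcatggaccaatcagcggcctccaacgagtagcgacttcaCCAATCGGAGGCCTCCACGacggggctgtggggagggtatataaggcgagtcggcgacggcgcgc
Calr: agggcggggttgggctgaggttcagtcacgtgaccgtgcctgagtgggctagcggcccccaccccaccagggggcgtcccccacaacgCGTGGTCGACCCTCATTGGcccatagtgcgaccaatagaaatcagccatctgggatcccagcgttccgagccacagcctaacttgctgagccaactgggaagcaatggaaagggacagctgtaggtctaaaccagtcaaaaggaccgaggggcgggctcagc
Of all 32851 windows, 39 (0.119%) held ERSE exactly, and of the 27 list members with a window 9 did. The 9 had a median log2 change of -0.07 (7 lower), and the 17 tested members without it had -0.16 (10 lower). The lower levels of Hspa5 and Calr were therefore not shared to the same extent by every gene with the element. Others with ERSE went further down, with log2 changes of -1.71 for Derl3 and -0.82 for Syvn1, both with overlapping groups. Hsp90b1, another abundant chaperone with ERSE, had a log2 change of -0.07, without overlap, and Creld2, also with ERSE, had 0.10. No match in a window says only that these letters are not there.

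Other steps of the secretory pathway showed smaller differences. Of 38 genes of translocation, glycosylation and vesicle transport, 23 were lower and 15 higher (median log2 change -0.08, and 0.25 without sham mouse 2). In either direction, 0 had an unadjusted p under 0.05 (background 1.91% higher and 1.92% lower). Of 27 genes of granules and lysosomes, the compartment in which renin is stored, 18 were higher and 9 lower (median 0.13). The median of the granule list was -0.03 without sham mouse 1 and 0.55 without sham mouse 2.

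Genes that control renin release showed no shared direction. Among 22 receptors 11 were higher and 11 lower (median log2 change 0.02). Adrb1, lower, was the member with an unadjusted p under 0.05 (background 1.92%). Among 30 genes of cyclic AMP and protein kinase A signalling 13 were higher and 17 lower (median -0.02). There were 3 higher members at that p (background 1.91%). These were Pde3a, described above, Ep300, a histone acetyltransferase and coactivator of CREB (log2 change 1.29, SE 0.48), and Crtc3, another CREB coactivator (log2 change 0.89, SE 0.41). Crtc3 was at 8.58, 20.6 and 18.5 TPM against 12.6 and 6.18 TPM, so its groups overlapped. Of 11 other members of the renin-angiotensin system 7 were higher and 4 lower (median 0.41). There were 0 members at an unadjusted p under 0.05 (background 1.91% higher and 1.92% lower). Likewise 0 were without overlap (background 5.41% higher and 11% lower).

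Smooth muscle genes, which renin lineage cells share with arteriolar muscle, were mostly higher in small steps. Of 23 contractile genes 20 were higher and 3 lower, with a median log2 change of 0.29. The median was -0.13 without sham mouse 1 and 1.03 without sham mouse 2, so its direction turned with the library left out. Actg2, the gamma smooth muscle actin, was at 3.50, 3.30 and 7.12 TPM in coarctation and at 0.202 and 0 TPM in sham right libraries, from 6 and 0 estimated counts. Pln, which encodes phospholamban of the calcium store, was at 206, 170 and 147 TPM against 88.3 and 117 TPM (log2 change 0.90, SE 0.38). In left kidneys the Pln change was 1.18 (SE 0.38). Acta2, the alpha actin of smooth muscle, was at 1163, 2915 and 2326 TPM against 1018 and 2312 TPM. The Acta2 groups overlapped (log2 change 0.40, SE 0.47, with -0.14 and 1.31 without sham mice 1 and 2), and Myh11, the smooth muscle myosin, had 0.29 (SE 0.30).

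Medians of the heat shock and immediate early lists took both signs as each sham library was left out. Of 22 cytosolic heat shock genes 17 were higher and 5 lower (median log2 change 0.37; -0.02 without sham mouse 1 and 0.96 without sham mouse 2). There were 3 higher members at an unadjusted p under 0.05 (background 1.91%), Hspa1b, Hspa1a and Hspa4l. Hspa4l, a co-chaperone of Hsp70, was at 5.75, 1.75 and 9.80 TPM against 1.39 and 1.49 TPM (log2 change 2.17, SE 0.76). Among 23 immediate early transcription factors 8 were higher and 15 lower (median -0.18; -0.73 and 1.15 without sham mice 1 and 2). Nr4a3, an orphan nuclear receptor of this class, was at 9.23, 13.1 and 13.9 TPM against 2.25 and 7.48 TPM (log2 change 1.37, SE 0.56, with 0.70 and 2.69 without sham mice 1 and 2). Mef2a, a transcription factor of muscle cells from the list of renin lineage factors, was at 18.6, 25.9 and 20.1 TPM against 10.1 and 13.2 TPM (log2 change 0.99, SE 0.34).

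Matrix genes went in both directions. Of 36 extracellular matrix genes 22 were higher and 14 lower (median log2 change 0.19). At an unadjusted p under 0.05 there were 4 higher (background 1.91%) and 2 lower members (background 1.92%). Fn1, fibronectin, was at 7.68, 8.64 and 8.27 TPM against 3.72 and 3.69 TPM (log2 change 1.28, SE 0.52). The replicates of each group were close, and the sham right libraries were the lowest of all 10. Lama2, the laminin alpha-2 chain, was at 0.467, 1.56 and 2.76 TPM against 4.49 and 5.69 TPM (log2 change -1.60, SE 0.67, and -2.28 without coarctation mouse 3). The other two higher members besides Col3a1 and Fn1 were Timp1 and Tnc, whose groups overlapped.

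Respiratory chain genes were higher in small steps. Of 43 nuclear-encoded subunits 40 were higher and 3 lower (median log2 change 0.28). Among them 0 had an unadjusted p under 0.05 (background 1.91% higher and 1.92% lower). All 13 mitochondrially encoded transcripts were higher (median 0.75, with 0.35 to 1.18 when any 1 library was left out). Their summed level overlapped between the groups, at 84498, 53852 and 62084 TPM against 60825 and 35111 TPM. The nuclear-encoded sums overlapped too, at 94276, 74437 and 73373 TPM against 84967 and 64576 TPM. Left kidney medians were 0.44 for the 13 transcripts and 0.24 for the nuclear-encoded list. Among the mitochondrial transcripts, mt-Nd4l was at 712, 449 and 459 TPM against 353 and 173 TPM (log2 change 1.25, SE 0.47). Nuclear copies of mitochondrial sequence make these counts uncertain. Of 22 oxidative stress genes 19 were higher (median 0.47, and 0.38 in left kidneys). Gstm1, a glutathione transferase, was at 828, 778 and 538 TPM against 495 and 437 TPM (log2 change 0.77, SE 0.34). Its left kidney change was 0.98 (SE 0.34). In glycolysis, Gpi1, the isomerase of the second step, was at 100, 182 and 200 TPM against 240 and 363 TPM (log2 change -0.83, SE 0.34), although 18 of 27 members were higher and 9 lower. Of 23 sterol synthesis genes 15 were lower and 8 higher (median -0.31).

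Most of the remaining lists centred near 0. Medians were -0.08 for 20 Notch pathway genes (8 higher, 12 lower), 0.00 for 18 pericyte and mural cell genes (9 and 9) and -0.02 for 29 transcription factors of the renin lineage (13 and 16). They were 0.11 for 16 genes of the nuclear lamina and its links to the cytoskeleton (10 and 6), 0.09 for 27 integrin and focal adhesion genes (16 and 11) and -0.05 for 18 YAP and SRF targets (7 and 11). Among 31 mechanosensitive and calcium genes (12 higher, 19 lower, median -0.14), Atp2b4, a calcium pump of the cell membrane, was at 8.44, 12.6 and 10.6 TPM against 28.8 and 21.0 TPM. Its groups did not overlap (log2 change -1.11, SE 0.36). Chemokine, adhesion and NF-kB genes had a median of -0.16 (10 of 25 higher), and interferon response and class I antigen presentation genes had 0.00 (14 of 28 higher). Ifit3, an interferon-induced gene, was at 16.8, 13.8 and 6.56 TPM against 4.38 and 2.05 TPM (log2 change 2.15, SE 0.71). The p53 and apoptosis list had a median of 0.02 (11 of 20 higher). At an unadjusted p under 0.05 this list had 1 higher member, Fas (background 1.91%), and 1 lower member, Bbc3 (background 1.92%). Bbc3 had the smaller p. Fas, the death receptor gene, was at 40.4, 36.3 and 24.2 TPM against 15.6 and 18.2 TPM (log2 change 1.14, SE 0.41). Left kidney changes went the same way, with -1.37 (SE 0.36) for Atp2b4, 2.04 (SE 0.70) for Ifit3 and 0.96 (SE 0.41) for Fas. Of 24 cell cycle genes 17 were higher (median 0.38, and -0.12 without coarctation mouse 1). Among these 24, 0 had an unadjusted p under 0.05 (background 1.91% higher and 1.92% lower). With a library left out, the medians of the other lists in this paragraph ran from -0.33 to 0.54, and all but that of the nuclear lamina list took both signs.

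**Figure D3:**
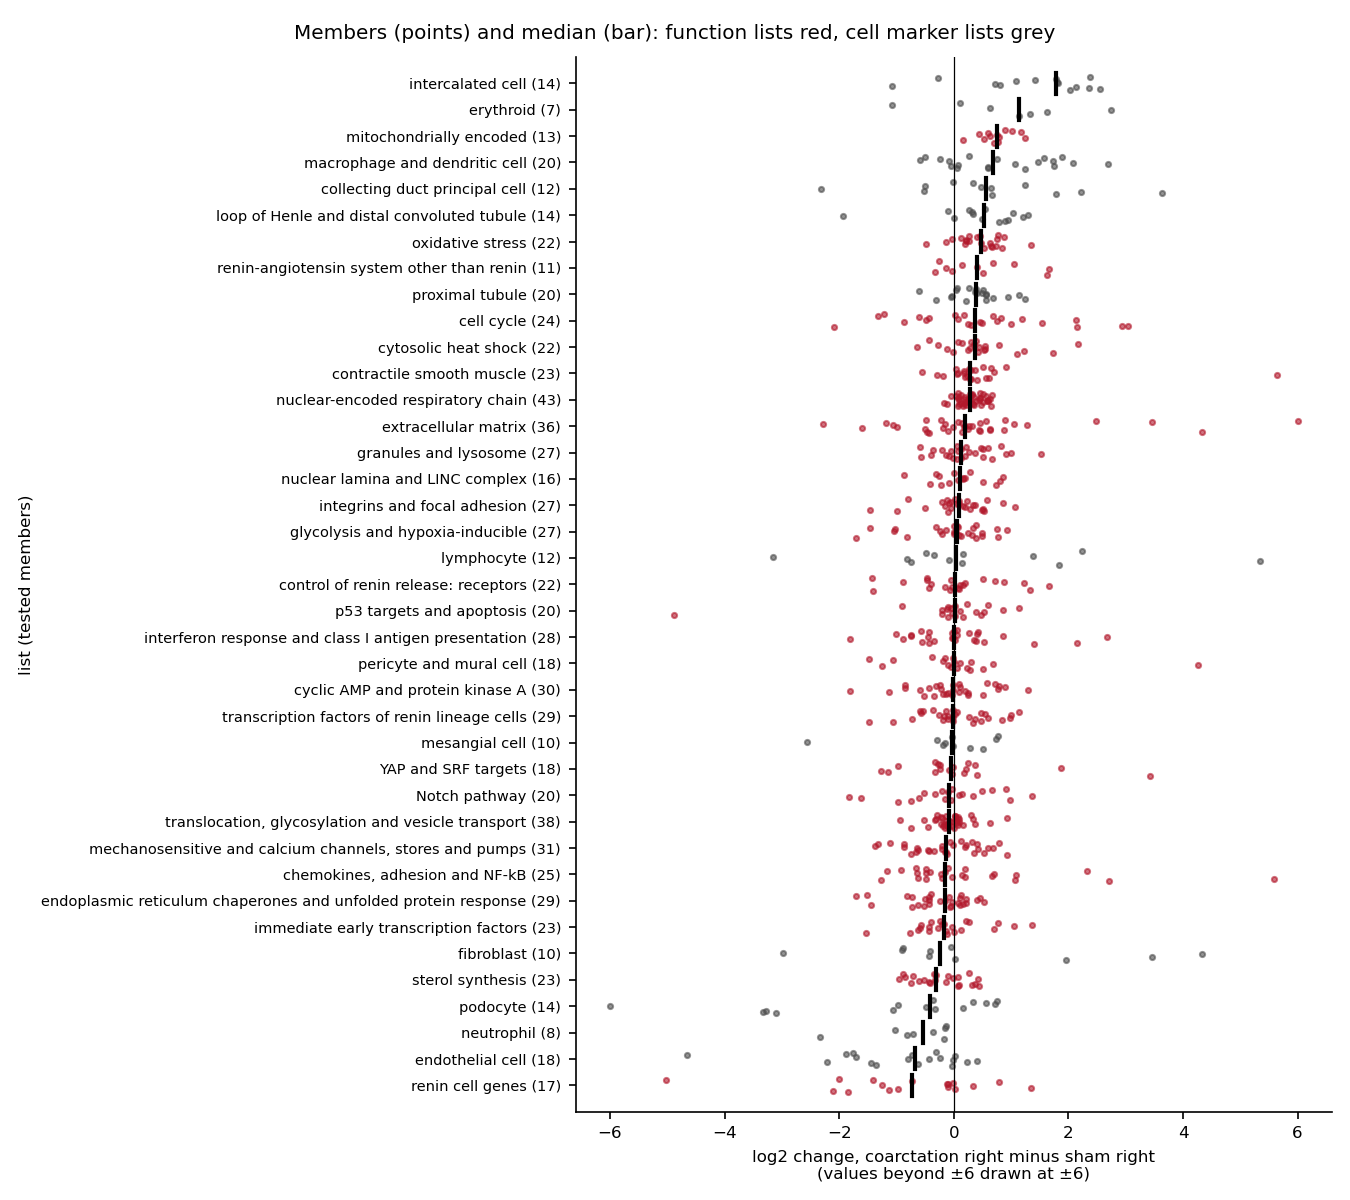
Log2 change of each tested member (points) and the median (bar) of the 39 gene lists, ordered by median, with the number of tested members. The renin cell list has the lowest median at -0.74 and the intercalated cell list the highest at 1.79, and most lists centre near 0.

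Markers of other kidney cells also differed between the groups, and their part in the results above was not tested. Intercalated cell markers, genes of the collecting duct cells that secrete acid or base, were higher in 12 of 14 members (median log2 change 1.79). Their summed level was 1233, 214 and 286 TPM in coarctation and 230 and 156 TPM in sham right libraries. Coarctation mouse 1 held most of this signal, and without it the median was 0.42. Atp6v1c2, a proton pump subunit, was at 45.8, 13.4 and 14.3 TPM against 5.28 and 7.66 TPM (log2 change 2.13, SE 0.77, and 1.14 without coarctation mouse 1). Car2, carbonic anhydrase 2, was at 405, 87.7 and 124 TPM against 77.1 and 63.3 TPM (log2 change 1.80, SE 0.69, and 0.67 without coarctation mouse 1). Principal cell markers were higher in 8 of 12 members (median 0.56; -0.23 without coarctation mouse 1 and 1.57 without sham mouse 1) and loop and distal tubule markers in 11 of 14 (median 0.52; -0.14 without it).

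Macrophage and dendritic cell markers were higher in 15 of 20 members (median log2 change 0.68; 0.10 without coarctation mouse 1 and 1.97 without sham mouse 2). They summed to 1242, 497 and 452 TPM in coarctation and 168 and 478 TPM in sham right libraries. Erythroid markers were higher in 6 of 7 members and summed to 154, 4063 and 15982 TPM against 925 and 4346 TPM, with wide spread in both groups. Proximal tubule markers were higher in 16 of 20 members (median 0.39; 1.43 and 0.02 without sham mice 1 and 2) and summed to 2674, 3712 and 5758 TPM against 5106 and 1546 TPM. The last 3 lists overlapped between the groups in their sums.

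Markers of podocytes and endothelium were lower. Of 14 podocyte markers 9 were lower and 5 higher (median log2 change -0.42), with 4 lower members at an unadjusted p under 0.05 (background 1.92%). They summed to 67.8, 91.9 and 85.8 TPM against 175 and 109 TPM, without overlap. Clic3, a chloride channel family gene on this list, had 1, 7 and 0 estimated counts in coarctation and 811 and 214 in sham right libraries. Nphs1, which encodes nephrin, was at 1.74 TPM or less in every right library. Of 18 endothelial markers 15 were lower and 3 higher (median -0.68), and the median was 0.02 without sham mouse 1. Their sums overlapped, at 140, 142 and 140 TPM against 128 and 169 TPM. Neutrophil markers (0 of 8 higher, sums of 4.93 to 11.7 TPM) and lymphocyte markers (6 of 12 higher, sums of 2.67 to 16.6 TPM) were at low levels.

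Fibroblast markers were higher in 4 of 10 members (median -0.24; 0.37 without sham mouse 1) and summed to 66.1 to 92.5 TPM. Mesangial markers were higher in 4 of 10 (median -0.02) and summed to 997 to 2553 TPM. The renin cell list itself summed to 17447, 32347 and 30631 TPM in coarctation and to 38713 and 79064 TPM in sham right libraries. Of the listed markers in the table, 0 were at 0 in all 5 right libraries. In each of these libraries the renin cell list summed above every marker list.

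**Figure D4:**
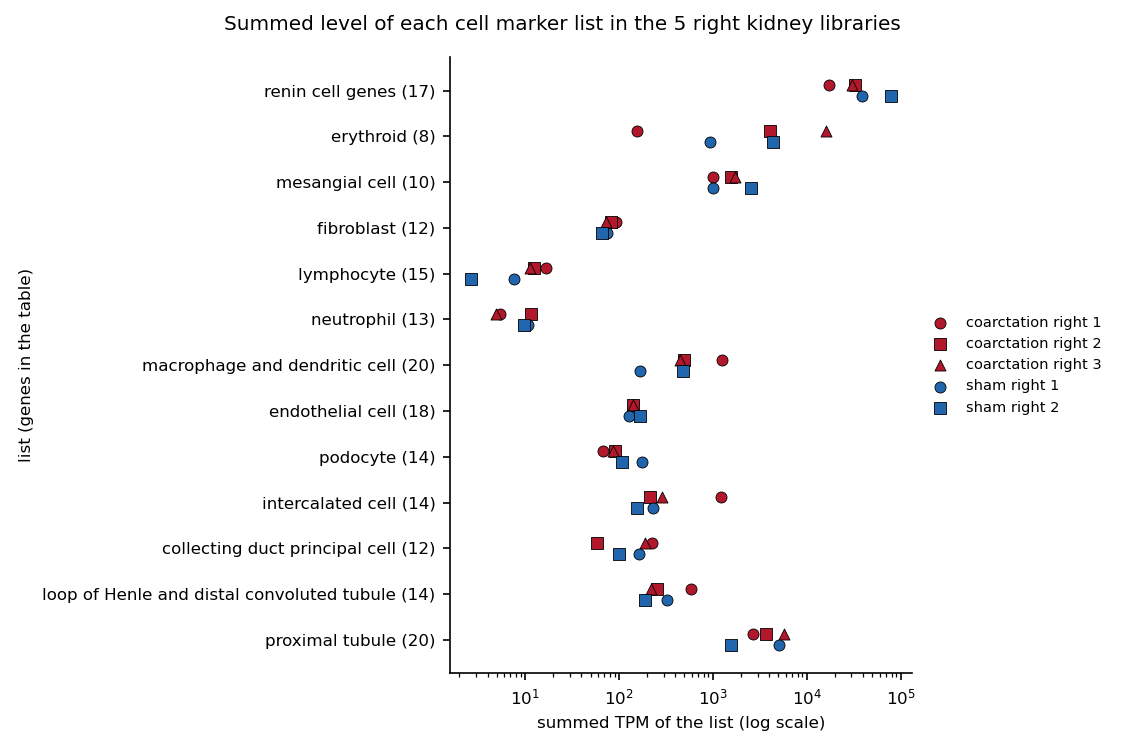
Summed TPM (log axis) of the 12 marker lists and of the renin cell list in each right kidney library. Coarctation mouse 1 lies far to the right for intercalated cells (1233 TPM) and macrophages (1242 TPM), and the renin cell list exceeds the marker lists in all 5 libraries.

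The right kidney difference was then compared with the same difference in left kidneys, in the same model. No gene passed for the difference of the changes (0 of 18825, 0%; smallest adjusted p 0.391 in edgeR). At an unadjusted p under 0.05 there were 575 genes (3.05%), and DESeq2 called 34. Mice provided both kidneys, and with the mouse as a block 0 genes passed (smallest adjusted p 0.181). Ren1 had a log2 change of 0.26 (SE 0.39) in left kidneys, and the difference of the changes was -2.11 (SE 0.55). Aldh7a1 had 0.23 (SE 0.47) on the left (difference -2.23, SE 0.67), and Dtx1 0.02 (SE 0.55; difference -2.44, SE 0.80). Rergl had a positive change on both sides, with 0.57 (SE 0.29) on the left (difference 0.63, SE 0.41).

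The chaperones had opposite signs on the sides. Manf had a log2 change of 1.29 (SE 0.29) on the left and -0.62 on the right (difference -1.91, SE 0.40). Sdf2l1 had 1.97 (SE 0.58) on the left (difference -3.42, SE 0.78), Hspa5 0.78 (SE 0.32; difference -1.51, SE 0.45) and Calr 0.65 (SE 0.33; difference -1.17, SE 0.45). Over the chaperone list the left median was 0.64 and the right median -0.16. DESeq2 called the difference for Manf (adjusted p = 0.0088, with up to 1.00 over 14 alternatives) and Sdf2l1 (adjusted p = 0.020, with 0.015 to 1.00), and edgeR did not.

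Intercalated cell genes also had opposite signs. Their median log2 change was -1.41 on the left and 1.79 on the right (0.42 without coarctation mouse 1). Principal cell markers of the collecting duct had the same order, with medians of -1.41 on the left and 0.56 on the right. Without coarctation mouse 1 the right median of the principal cell list was -0.23. Spink8, a protease inhibitor gene named after its values were seen, was at 215, 60.1 and 112 TPM in coarctation right and 38.1 and 24.2 TPM in sham right libraries (log2 change 2.29, SE 0.67, and 1.57 without coarctation mouse 1). In left kidneys it was at 15.2, 7.85 and 4.58 TPM with coarctation and at 60.1 and 74.8 TPM in sham mice (log2 change -2.59, SE 0.62). The difference of these changes was 4.88 (SE 0.92), the adjusted p in DESeq2 was 0.00075 (5.0e-08 to 1.00 over 14 alternatives), and edgeR did not call it. The groups did not overlap on either side, in opposite orders.

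**Figure D5:**
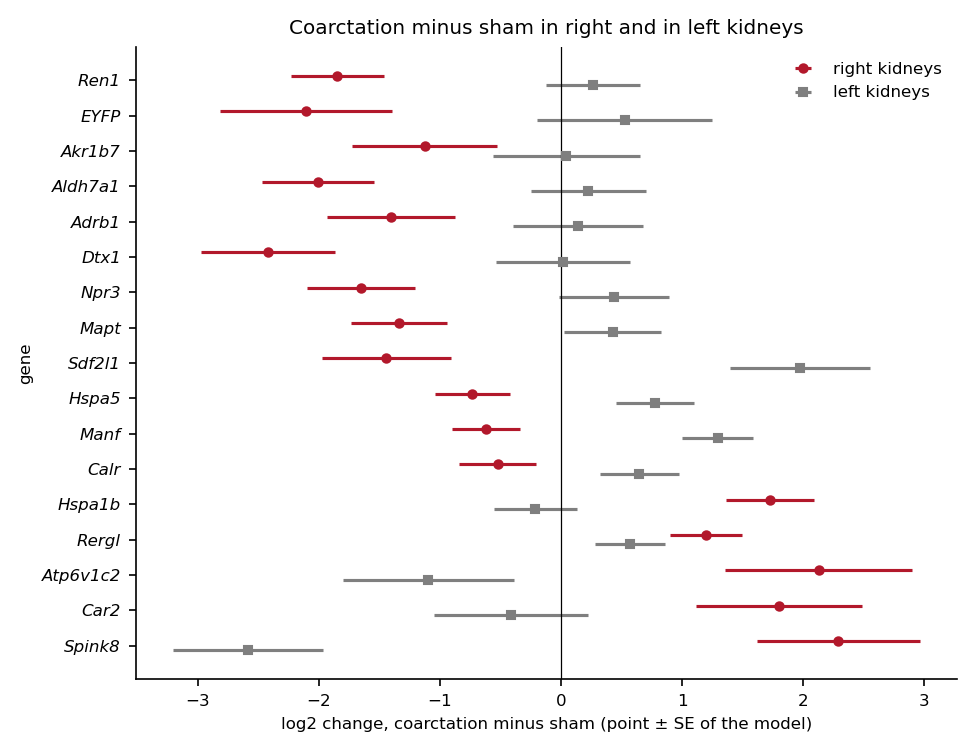
Log2 change, coarctation minus sham, of 17 genes in right kidneys (circles) and left kidneys (squares) with the SE of the model. Renin cell genes are near 0 on the left and below 0 on the right, chaperones lie above 0 on the left and below 0 on the right, and the intercalated cell genes and Spink8 show the reverse order.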

How the data were processed

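RNA from sorted renin cells was measured in 10 libraries, and the 5 from right kidneys are compared here. The deposited table gives TPM in its abundance columns, per the file headers. Its count columns hold estimated counts that the authors derived from length-scaled TPM, as a column of the deposited file states. FastQC and GRCm38 (mm10) are named in the submitters' processing notes. For aligner, quantifier and annotation, names were not given in the sources used here. Groups came from the labels. Estimated counts were rounded, filtered (filterByExpr) and TMM-scaled, and contrasts were fitted in edgeR 4.0.16 (R 4.3.3) by quasi-likelihood, with the 4 groups and all 10 libraries in the fit, a common dispersion of 0.45, 6 residual degrees of freedom and Benjamini-Hochberg adjustment at 0.05. Right kidneys of coarctation and sham mice come from different animals and are not paired. Left and right kidneys come from the same mouse, and their deviations from the group means correlated at 0.031 to 0.40. DESeq2 1.42.0, limma 3.58.1, other scalings and filters, and leave-outs were alternatives, and the fits were tested on simulated data.

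Named genes were Ren1, EYFP and Akr1b7, then the 12 higher and 12 lower genes of smallest p whose log2 CPM averaged at least 3 over the right libraries and whose TPM did not overlap between the groups (predicted genes and copies left out), then up to 5 members per function list and 3 per marker list. Not all of these genes are reported here. The 39 lists and this rule were chosen with earlier results of these data known. Of the listed symbols, 7 were not in the table under that name and 20 had too few counts to be tested. Gene positions are from GENCODE vM21 by symbol. The mice are biological replicates per the labels' design text. Reads carry no molecular identifiers, so errors computed from counts alone would cover counting error only.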

Additional observations from a re-analysis of the deposited data

How the results depend on the processing

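For coarctation right minus sham right, 0 genes were called in the reported fit, 57 with DESeq2, 70 without the filter on low counts and 0 to 3 when a library was left out. The 3 were called without coarctation mouse 3, among them Kiss1. For the right difference minus the left difference, 0 genes were called in the reported fit, 34 with DESeq2, 63 without the filter and 0 to 1 when a mouse was left out, the 1 without coarctation mouse 3. Limma-voom, limma on log2(TPM + 1) or log2(TPM + 0.1), RLE or upper-quartile scaling, a minimum of 1 CPM in 3 libraries, the 5 right libraries alone, and leaving out both kidneys of sham mouse 1 or of coarctation mouse 1 (these 2 chosen after seeing the data) called 0 genes where they were run. Why these fits differ was not tested. Log2 changes that reversed were those of Akr1b7 (-1.87 to 0.52 when each library was left out, reversed without sham mouse 2) and Acta2 (-0.14 to 1.31, reversed without sham mouse 1, and -0.13 without both of its kidneys).

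The replicate block, with the number of the labels as a term, called 2 genes for coarctation right minus sham right (Ren1 and Kiss1, adjusted p = 0.0233 in edgeR). Those numbers name different mice in the 2 groups, so no pairing was assumed. For right kidneys of the same number, deviations from the group means correlated at 0.057 and 0.030. The deviations of 2 sham libraries mirror each other, so these 2 values are not independent. With the mouse as a block, 0 genes were called for the difference between the sides. With 2 sham mice, each sham library weighed heavily: the renin cell median ran from -1.04 to -0.08 when each library was left out.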
